A study of Homo sapiens with 9 samples.

Results

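The 6 genes described here move lactate, pyruvate and acid equivalents across membranes. SLC16A1 and SLC16A3 encode the monocarboxylate transporters MCT1 and MCT4, and BSG encodes basigin, the membrane protein that carries both of them to the cell surface. MPC1 and MPC2 encode the subunits of the mitochondrial pyruvate carrier, and SLC4A7 encodes a sodium bicarbonate cotransporter that brings base into the cell. They were taken by symbol from a table of 22290 genes whose Ensembl identifiers were matched to symbols. The choice was made with earlier results of these data known, and all 6 had values in all 9 libraries.

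The libraries are given as coming from IMR-32, an established human cell line that the labels describe as neuroblastoma, and fall into 3 groups of 3. Parental cells are labelled WT for TRAP-1, a mitochondrial chaperone of the Hsp90 family encoded by TRAP1, and the other groups are labelled as its knockdown (KD) and its overexpression (OE). The engineered cells were made in earlier work, and the construct, its promoter and whether each line is 1 clone are not given in the sources used here. Libraries were made from isolated RNA and sequenced, and the study set each engineered line against parental cells to ask how the amount of TRAP-1 bears on metabolism.

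In glycolytic cells pyruvate is either reduced to lactate by lactate dehydrogenase or taken into mitochondria for oxidation. Monocarboxylate transporters carry lactate together with a proton, so that lactate export also removes acid, whereas the pyruvate carrier of the inner mitochondrial membrane works only as a complex of both of its subunits. Tumor cells that run glycolysis at a high rate are known for lactate export and for bicarbonate uptake and proton export that hold their internal pH.

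Values are regularized log2 values (rlog), a log2 scale adjusted for library size in which each gene is pulled toward its own mean, most strongly at low counts, so a difference between groups is a shrunken log2 difference. The depth of each single library cannot be read from such values. Over the whole table the rlog value ran from 0.14 to 18.54, with a median of 7.03 for the parental means. The labels do not say that libraries of a group came from separate cultures, and p-values then measure only the spread between these samples, which may be technical. A gene was called at an adjusted p under 0.05 from limma, a linear model fitted to all 9 libraries, with Benjamini-Hochberg adjustment over all 22290 genes.

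TRAP1, the gene that the groups are named after, was 10.67, 10.66 and 10.65 in the parental libraries, 10.79, 10.79 and 10.83 in the libraries labelled KD, and 10.67, 10.63 and 10.74 in those labelled OE. All 3 libraries labelled KD lay above the parental ones, and the libraries labelled OE lay on both sides of them. The rlog difference from parental was 0.14 for KD (standard error 0.025, adjusted p = 1.8e-05 from limma) and 0.018 for OE (adjusted p = 0.643 from limma). With the median of neighbouring genes removed from each library, the OE difference was 0.070 (adjusted p = 0.0200 from limma, against 0.0200 to 0.782 over all alternatives). TRAP1 was lower in OE than in KD, by an rlog difference of -0.12 (adjusted p = 1.5e-04 from limma), which runs opposite to the labels. With neighbours removed that difference was -0.059 (adjusted p = 0.0385 from limma, against 7.8e-06 to 0.0385 over all alternatives). TRAP1 RNA thus does not follow the labels, so KD and OE name labels of libraries throughout. Of the exonic bases of TRAP1, 28.5% are shared with other genes, mainly with DNASE1 on the opposite strand, whose rlog difference was 0.16 in KD.

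The cell line was also set against markers of its cell type. Of 20 markers of adrenergic neuroblastoma, 14 had values, and DBH, DDC, STMN2, ELAVL4 and INSM1 were among those not analysed here. PHOX2A, TH, MYCN and GAP43 had group means under an rlog value of 3 in all groups. MYCN, a gene known to be amplified in IMR-32, had a parental rlog value of 2.52 ± 0.045 (SD, n = 3), and 18.7% of genes lay lower. Of the 14 markers, ISL1 and GATA2 were the most abundant, with parental rlog values of 9.37 ± 0.010 and 9.27 ± 0.021 (SD, n = 3). These libraries thus lack the high MYCN and tyrosine hydroxylase RNA that the name of the cell line leads a reader to look for, and IMR-32 stands here for the name in the labels.

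Some markers of other cell types were present, and the summed level of each list mostly follows its most abundant genes. The epithelial list had values for 14 of 18 genes, KRT18 being the most abundant at a parental rlog value of 12.06 ± 0.012 (SD, n = 3). CLDN4, PKP3, DSP and KRT8 followed at 10.10, 9.86, 9.70 and 8.70, while EPCAM was at 2.59 and ELF3 at 0.90. KRT18 has 68 annotated pseudogenes and shares 17.1% of its exonic bases with KRT8, so part of its value may be reads of other loci, which was not tested. The log2 of its summed unlogged values was 12.94, 12.95 and 12.94 in the parental libraries, 12.98, 13.02 and 13.04 in KD, and 12.84, 12.83 and 12.84 in OE. Of its 14 genes, 2 were called higher and 3 lower in KD, and 2 higher and 4 lower in OE (35.7% and 42.9% called, beside 53.7% and 34.8% of all genes), so the sum does not stand for the list. With a mean rlog value of at least 5, 8 genes of the list were left. Of these, 3 were called higher and 2 lower in KD (62.5%, beside 72.8% of all such genes). In OE 2 were called higher and 4 lower (75%, beside 52.8%).

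The fibroblast or mesenchymal list had values for 11 of 12 genes, of which PRRX1 was the most abundant at a parental rlog value of 11.70, with TWIST1 at 8.85 and PDGFRB at 8.48, whereas the collagen genes COL1A2 and COL3A1 were at 1.35 and 1.16. Its summed level was 11.99, 12.08 and 12.08 in the parental libraries, 13.17 in each library labelled KD, and 12.65, 12.64 and 12.65 in OE. That rise is largely PRRX1 (rlog differences of 1.29 in KD and 0.69 in OE), and TWIST1 also rose, by 0.43 and 0.28. Of the 11 genes, 2 were called higher and 1 lower in KD, 4 higher and 0 lower in OE (27.3% and 36.4% called, beside 53.7% and 34.8% of all genes), and the list medians were 0.031 and 0.063. Only 3 of them had a mean rlog value of at least 5. Of these, 2 were called higher in KD (66.7%, beside 72.8% of all such genes) and 3 in OE (100%, beside 52.8%), with 0 lower in either. Their medians were 0.43 in KD and 0.28 in OE. For the adrenergic list the summed level was 11.14, 11.14 and 11.13 in the parental libraries, 11.01, 11.01 and 11.04 in KD, and 11.20, 11.27 and 11.27 in OE. Of its 14 genes, 3 were called higher and 7 lower in KD (71.4%, beside 53.7% of all genes). In OE, NEFL (0.53) was the only gene called higher and 2 were lower (21.4%, beside 34.8% of all genes), with a list median of -0.010 against the rise of the sum. With a mean rlog value of at least 5, 7 adrenergic genes were left. Of these, 0 were called higher and 5 lower in KD (71.4%, beside 72.8% of all such genes), near the share at that level. In OE 1 was called higher and 1 lower (28.6%, beside 52.8%). The part of these shifts in the transport genes was not tested. In bulk RNA of this kind, fewer cells that express a gene and less of its RNA per cell cannot be told apart.

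On GRCh38 (GENCODE v44), SLC16A1 (ENSG00000155380) lies on chromosome 1 from 112911847 to 112957593 on the minus strand, and MPC2 (ENSG00000143158) on the same chromosome from 167916675 to 167937072, also on the minus strand. SLC16A3 (ENSG00000141526) lies on chromosome 17 from 82217934 to 82261129 on the plus strand, and BSG (ENSG00000172270) on chromosome 19 from 571277 to 583494 on the plus strand. MPC1 (ENSG00000060762) lies on chromosome 6 from 166364919 to 166383013 and SLC4A7 (ENSG00000033867) on chromosome 3 from 27372721 to 27484420, both on the minus strand. The library kit does not mark strand, so reads from a gene and from a gene overlapping it on the opposite strand cannot be told apart. Such overlaps take 21.8% of the exonic bases of MPC2 (with DCAF6), 5.22% of SLC16A3 (with CSNK1D), 3.64% of SLC16A1 (with SLC16A1-AS1) and 3.17% of BSG (with BSG-AS1). MPC1 and SLC4A7 share no exonic base with another gene. SLC16A1 has 1 annotated pseudogene, SLC16A1P1.

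Promoter windows of RefSeq (GRCh38.p14, 250 bases before to 50 after a start) matched 5 of the 6 genes by symbol, all but SLC16A1. Those of SLC16A3, MPC1, SLC4A7 and BSG are shown because these genes differed from parental in the libraries labelled KD, the last in the opposite direction to the others. Capitals mark the letters ACGTG or GCGTG on either strand, the core that hypoxia-inducible factors are known to bind, a motif chosen after the data were seen. The windows are chr17:82228792-82229091 on the plus strand, chr6:166382891-166383190 on the minus strand, chr3:27484335-27484634 on the minus strand and chr19:572346-572645 on the plus strand, each at the start of the canonical transcript and written 5′ to 3′ on the strand of the gene.
SLC16A3: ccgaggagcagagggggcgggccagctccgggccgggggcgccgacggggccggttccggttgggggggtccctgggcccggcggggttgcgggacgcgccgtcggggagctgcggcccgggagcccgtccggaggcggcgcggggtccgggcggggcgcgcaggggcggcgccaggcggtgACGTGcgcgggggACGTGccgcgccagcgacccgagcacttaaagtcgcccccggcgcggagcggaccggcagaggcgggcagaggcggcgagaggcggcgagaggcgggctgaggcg
MPC1: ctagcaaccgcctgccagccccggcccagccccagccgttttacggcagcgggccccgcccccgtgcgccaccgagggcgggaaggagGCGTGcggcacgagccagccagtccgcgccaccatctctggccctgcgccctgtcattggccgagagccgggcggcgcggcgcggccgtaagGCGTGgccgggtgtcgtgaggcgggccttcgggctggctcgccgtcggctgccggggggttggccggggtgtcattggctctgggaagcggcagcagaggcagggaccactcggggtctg
SLC4A7: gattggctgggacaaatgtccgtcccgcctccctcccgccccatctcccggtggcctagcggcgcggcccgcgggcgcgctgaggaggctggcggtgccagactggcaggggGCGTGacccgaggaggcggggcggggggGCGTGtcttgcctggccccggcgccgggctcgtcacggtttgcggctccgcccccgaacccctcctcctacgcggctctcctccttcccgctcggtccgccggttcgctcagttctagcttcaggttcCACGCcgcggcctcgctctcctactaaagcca
BSG: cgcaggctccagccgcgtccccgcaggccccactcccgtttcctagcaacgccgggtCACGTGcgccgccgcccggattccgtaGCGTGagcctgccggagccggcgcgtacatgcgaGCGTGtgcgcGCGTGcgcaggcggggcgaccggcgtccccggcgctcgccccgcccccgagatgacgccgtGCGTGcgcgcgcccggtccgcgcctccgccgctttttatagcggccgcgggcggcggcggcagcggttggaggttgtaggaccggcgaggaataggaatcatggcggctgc
The window of SLC16A3 held 2 matches, at -68 and -55 from the start, that of MPC1 held 2, at -162 and -70, and that of SLC4A7 held 3, at -138, -110 and 18. The BSG window held 6 matches, of which those at -193 and -192 overlap as CACGTG read on both strands, and the window of MPC2 held 1. Of all 35116 windows of this length, 48.4% held at least 1 match, 23.1% at least 2, 10.1% at least 3 and 0.9% at least 6. A match describes these letters only. The GC content of the 4 printed windows was 82.7% for SLC16A3, 75.7% for MPC1, 73.0% for SLC4A7 and 75.3% for BSG.

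In the libraries labelled KD, 5 of the 6 transport genes were called against parental, 4 of them lower (SLC16A1, SLC16A3, MPC1 and SLC4A7) and 1 higher (BSG). Of all 22290 genes, 53.7% were called in this comparison, 26.9% higher and 26.9% lower. Against parental, the OE libraries had 2 of the 6 called, SLC4A7 lower and BSG higher, where 34.8% of all genes were called, 16.9% higher and 18.0% lower. Between OE and KD, 4 of the 6 were called higher in OE (SLC16A1, SLC16A3, MPC1 and SLC4A7) and none lower, where 47.3% of all genes were called, 23.5% higher and 23.8% lower. With the median of neighbouring genes removed, SLC4A7 was instead called lower in OE than in KD (-0.067). These shares depend on level: among the 14000 genes with a mean rlog value of at least 5, as all 6 have, 72.8% were called in KD, 52.8% in OE and 65.5% between the lines. The median rlog difference of the 6 genes was -0.23 in KD and -0.019 in OE against parental, beside -5.1e-04 and 3.9e-04 over all genes. The comparisons of KD and OE with parental share the same 3 parental libraries, so their values are given side by side and are not independent of each other.

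**Figure D1:**
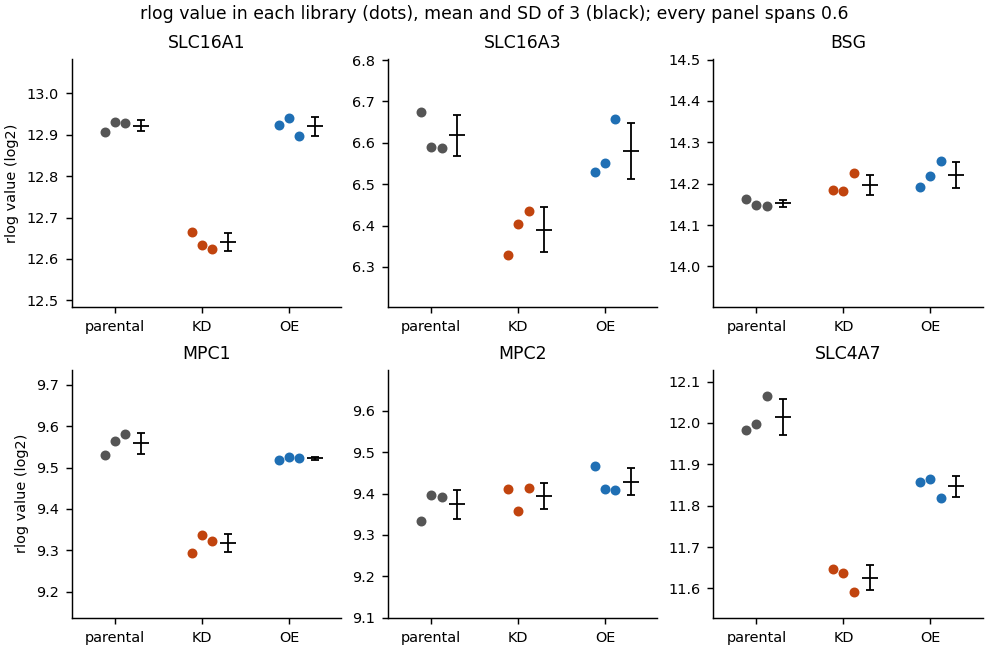
The rlog value (log2) of each transport gene in each of the 9 libraries, with the libraries labelled parental, KD and OE along the x axis; dots are libraries, and black marks are the mean and SD of 3. SLC16A1, SLC16A3, MPC1 and SLC4A7 are lowest in the 3 libraries labelled KD, MPC2 overlaps between parental and KD, and SLC4A7 in OE lies between parental and KD.

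SLC16A1, the transporter of lactate and pyruvate found in most tissues, had rlog values of 12.91, 12.93 and 12.93 in the parental libraries, 12.67, 12.63 and 12.62 in KD, and 12.92, 12.94 and 12.90 in OE. The 3 libraries labelled KD lay below all others by about the same amount, and the OE and parental libraries overlapped. The rlog value fell by 0.28 in KD (adjusted p = 4.1e-16 from limma, standard error 0.016), and the unlogged value fell by 17.7%. Among 1907 genes within 1 rlog unit of its mean level, 16.8% had a larger difference in KD. In OE the rlog difference from parental was -0.0021, with a 95% confidence interval of -0.035 to 0.031 (adjusted p = 0.943 from limma). The overlapping antisense gene SLC16A1-AS1 had an rlog difference of 0.043 in KD (adjusted p = 0.243 from limma).

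SLC16A3, the transporter that strongly glycolytic cells use for lactate export, had rlog values of 6.67, 6.59 and 6.59 in the parental libraries, 6.33, 6.40 and 6.44 in KD, and 6.53, 6.55 and 6.66 in OE. The libraries labelled KD were again below all others, while OE and parental overlapped. Its rlog value fell by 0.23 in KD (adjusted p = 1.3e-04 from limma, standard error 0.048), and 35.7% of 2634 genes within 1 rlog unit of its level had a larger difference. In OE the rlog difference was -0.038, with a 95% confidence interval of -0.14 to 0.060 (adjusted p = 0.604 from limma), and it ran from -0.077 (without OE replicate 3) to -0.0091 (without parental replicate 1) with libraries left out in turn. CSNK1D, which overlaps it on the opposite strand and had a parental rlog value of 9.49, also had lower values. Its rlog difference was -0.19 in KD and -0.21 in OE. The part of the SLC16A3 value that comes from CSNK1D reads was not tested.

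BSG, the partner of both transporters, had rlog values of 14.16, 14.15 and 14.15 in the parental libraries, 14.19, 14.18 and 14.22 in KD, and 14.19, 14.22 and 14.26 in OE. Every engineered library lay above every parental library, by little, and KD and OE overlapped. The rlog difference from parental was 0.045 in KD (standard error 0.014, adjusted p = 0.00749 from limma) and 0.070 in OE (adjusted p = 1.5e-04 from limma, with the same standard error). These differences were small for its level: 77.6% of 539 genes within 1 rlog unit of BSG had a larger difference in KD and 47.5% in OE. The KD call was lost without a variance trend (adjusted p = 0.111 from limma) and without KD replicate 3 (adjusted p = 0.0838, difference 0.031), against adjusted p values from 2.8e-08 to 0.111 over all alternatives. BSG-AS1, antisense to it with a parental rlog value of 5.31, had a difference of 0.40 in KD and 0.082 in OE.

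MPC1, a subunit of the mitochondrial pyruvate carrier, had rlog values of 9.53, 9.56 and 9.58 in the parental libraries, 9.29, 9.34 and 9.32 in KD, and 9.52, 9.53 and 9.52 in OE. The libraries labelled KD lay well below the rest, and those labelled OE lay just under the lowest parental library without overlap. Its rlog value fell by 0.24 in KD (adjusted p = 1.0e-08 from limma, standard error 0.029). Of 3916 genes within 1 rlog unit of its level, 29.9% had a larger difference. In OE, where 34.8% of all genes were called, the MPC1 difference was -0.036, with a 95% confidence interval of -0.094 to 0.022 (adjusted p = 0.374 from limma).

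MPC2, the other subunit, had rlog values of 9.33, 9.40 and 9.39 in the parental libraries, 9.41, 9.36 and 9.41 in KD, and 9.47, 9.41 and 9.41 in OE. Parental and KD overlapped, and the OE libraries lay above the parental ones by a small margin. The rlog difference from parental was 0.020 in KD, with a 95% confidence interval of -0.042 to 0.082 (adjusted p = 0.612 from limma), and 0.054 in OE, with an interval of -0.0079 to 0.12 (adjusted p = 0.183 from limma), a comparison in which 34.8% of all genes were called. DCAF6, which shares exonic bases with it on the opposite strand, was higher in rlog value by 0.35 in KD (adjusted p = 3.6e-15 from limma) and by 0.11 in OE (adjusted p = 1.7e-04 from limma). How much of the MPC2 value comes from DCAF6 reads was not tested.

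SLC4A7, the bicarbonate importer, had rlog values of 11.98, 12.00 and 12.06 in the parental libraries, 11.65, 11.64 and 11.59 in KD, and 11.86, 11.86 and 11.82 in OE. The 3 groups did not overlap, with OE between parental and KD. Its rlog value fell by 0.39 in KD (standard error 0.021, adjusted p = 1.6e-16 from limma) and fell by 0.17 in OE (adjusted p = 1.3e-07 from limma, with the same standard error). On the unlogged scale it fell by 23.6% in KD and fell by 11.0% in OE. With the median of neighbouring genes removed, the rlog difference of SLC4A7 was -0.17 in KD and -0.23 in OE, so that the OE fall was the larger. Among 3668 genes within 1 rlog unit of its level, 8.70% had a larger difference in KD and 13.7% in OE.

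**Figure D2:**
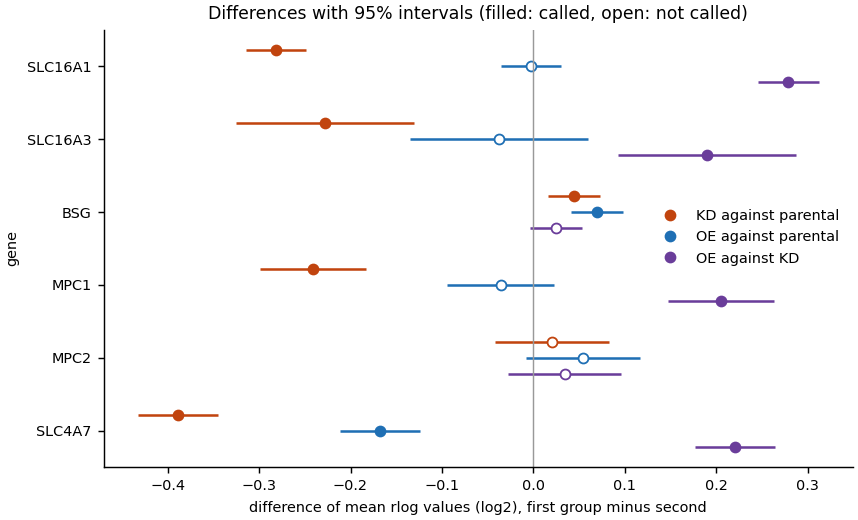
Differences of mean rlog values (log2, x axis) for each transport gene (y axis) in the 3 comparisons, with 95% confidence intervals from limma as lines; filled dots are called and open dots are not. The KD differences of SLC16A1, SLC16A3, MPC1 and SLC4A7 lie between -0.39 and -0.23, and the OE differences of the first 3 of these have intervals that cross 0.

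Between the engineered lines, SLC16A1 was higher in OE than in KD by an rlog difference of 0.28 (adjusted p = 7.4e-16 from limma), SLC4A7 by 0.22 (adjusted p = 2.1e-10 from limma), MPC1 by 0.21 (adjusted p = 3.0e-07 from limma) and SLC16A3 by 0.19 (adjusted p = 0.00126 from limma). For each of these 4 genes all 3 OE libraries lay above all 3 KD libraries. How many of all genes separate in this way was not counted. In this comparison 47.3% of all genes were called, and 65.5% of those with a mean rlog value of at least 5. BSG and MPC2 overlapped between the lines, with rlog differences of 0.025 (adjusted p = 0.147 from limma) and 0.034 (adjusted p = 0.391 from limma). The BSG difference between the lines was called without KD replicate 3 (0.039) and without OE replicate 1 (0.040), with adjusted p values of 0.0320 and 0.0284 from limma against 0.00419 to 0.671 over all alternatives. The direction for SLC4A7 turned with the median of neighbouring genes removed (-0.067, adjusted p = 0.00888 from limma, against 2.4e-13 to 0.00888 over all alternatives). With the same medians removed, the differences of BSG (0.040) and MPC2 (0.074) between the lines were both called, MPC2 at an adjusted p of 0.0409 from limma against 0.0409 to 0.756 over all alternatives.

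Partner genes were then set against each other within each library. The rlog value of MPC1 minus that of MPC2 was 0.20, 0.17 and 0.19 in the parental libraries, -0.12, -0.022 and -0.093 in KD, and 0.053, 0.12 and 0.11 in OE. The carrier subunits thus changed order between groups on the rlog scale: MPC1 was above MPC2 in all parental and OE libraries and below it in all 3 libraries labelled KD. BSG minus SLC16A1 was 1.26, 1.22 and 1.22 in the parental libraries, 1.52, 1.55 and 1.60 in KD, and 1.27, 1.28 and 1.36 in OE. The gap between basigin and its transporter was widest in KD, where it exceeded the parental gap by 0.33. SLC16A3 minus SLC16A1 was -6.30 ± 0.062 in parental, -6.25 ± 0.076 in KD and -6.34 ± 0.089 in OE (SD, n = 3), groups that overlapped. These differences are descriptions with no test.

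**Figure D3:**
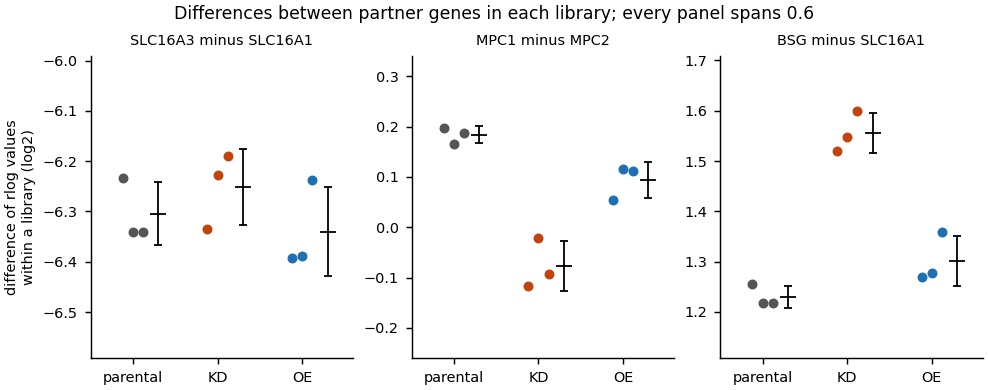
Differences of rlog values (log2, y axis) between partner genes within each library, for the libraries labelled parental, KD and OE; dots are libraries, and black marks are the mean and SD of 3. MPC1 minus MPC2 is above 0 in the parental and OE libraries and below 0 in KD, and BSG minus SLC16A1 is largest in KD.

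Levels of different genes were compared as unlogged values per kilobase of annotated exon, mean ± SD of 3 libraries. In the parental libraries BSG had the highest level per kilobase (4122 ± 25.3), followed by SLC16A1 (1223 ± 10.8), MPC1 (489.6 ± 8.38), SLC4A7 (430.4 ± 13.3), MPC2 (251.6 ± 6.15) and SLC16A3 (10.6 ± 0.37). Each step in this order was larger than the SDs beside it, the narrowest being the 59.2 between MPC1 and SLC4A7. The order was the same in KD and in OE, and with the exon length of the canonical transcript in place of the union of exons, a length chosen after seeing the data. Of the 2 lactate transporters among the 6 genes, SLC16A1 was thus the main one at the RNA level. It stood at 115.0 times the level of SLC16A3 per kilobase in the parental libraries with the union of exons and 54.7 times with the canonical length. Outside the 6 genes, the monocarboxylate transporter genes SLC16A7 and SLC16A8 had parental levels of 132.3 and 94.3 per kilobase, also above SLC16A3. MPC1 stood above MPC2 per kilobase in every group, at 414.2 ± 6.31 against 255.1 ± 5.49 in KD, although its rlog value there was the lower one.

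Genes around each transport gene were examined beside it. For SLC4A7, 40 genes with a mean rlog value of at least 8 lay within 10 Mb, and in KD 35 of them were lower (87.5%, beside 51.7% of all 9956 genes of that level) and 33 were called lower, with a median rlog difference of -0.21. SLC4A7 itself fell further, and 5% of these neighbours fell more than it did. In OE the same 40 genes had a median rlog difference of 0.073 with 29 higher and 27.5% lower, beside 53.8% lower of all genes of that level, in the opposite direction to SLC4A7. With the median of the neighbours removed from each library, the rlog difference of SLC4A7 was -0.17 in KD and -0.23 in OE, both called, and the difference of OE from KD turned from 0.22 to -0.067. The order of SLC4A7 between KD and OE therefore rests on whether its neighbourhood is taken into account, while it was lower than parental in both lines either way.

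For the other 5 genes the neighbourhoods lay closer to 0. In KD the median rlog difference of the neighbours was 0.020 for SLC16A1 (76 genes), -0.041 for SLC16A3 (126 genes), -0.050 for BSG (152 genes), 0.035 for MPC1 (30 genes) and 0.054 for MPC2 (77 genes). Over all 9956 genes of that level it was -0.0070 in KD and -0.011 in OE. In KD the neighbours of SLC16A1 (42 higher, 34 lower) and of MPC1 (17 higher, 13 lower) had no clear direction. Those of BSG (57 higher, 95 lower) and of SLC16A3 (49 higher, 77 lower) were more often lower, and those of MPC2 more often higher (46 higher, 31 lower). In OE, 73.0% of the SLC16A3 neighbours and 69.7% of the BSG neighbours were lower, beside 53.8% of all genes of that level. In OE the neighbours of BSG had a median of -0.057, and with neighbours removed the BSG difference was 0.091 in KD and 0.13 in OE, larger than as deposited.

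**Figure D4:**
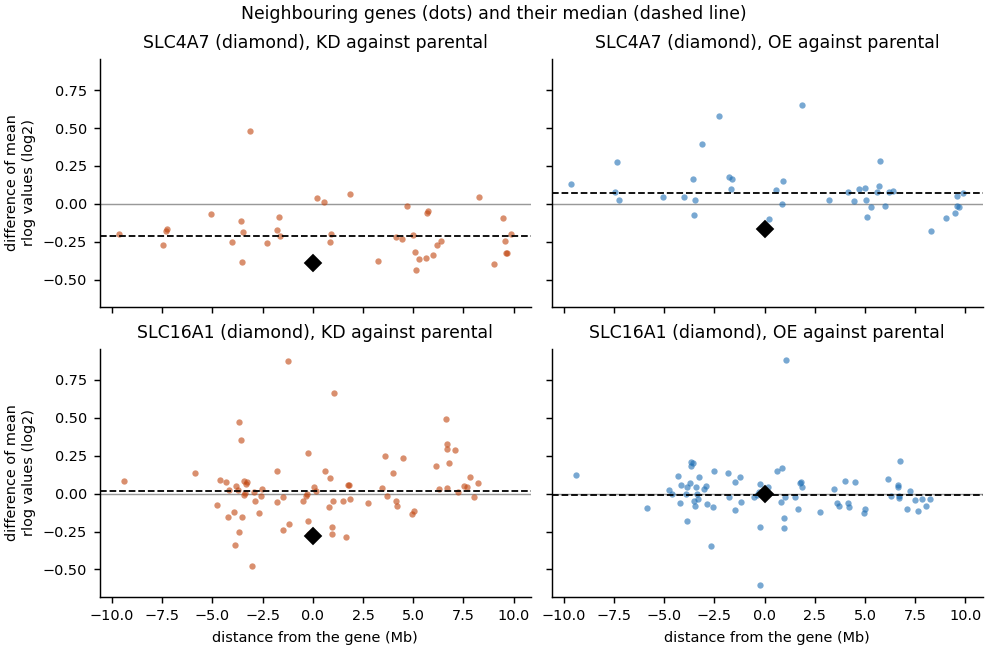
Differences of mean rlog values from parental (log2, y axis) of genes with a mean rlog value of at least 8 within 10 Mb of SLC4A7 (top) and SLC16A1 (bottom), by distance in Mb (x axis), in KD (left) and OE (right); dots are genes, the diamond is the named gene and the dashed line the median of the neighbours. Around SLC4A7, 35 of 40 genes lie below 0 in KD and 29 of 40 above 0 in OE, whereas the 76 neighbours of SLC16A1 have medians of 0.020 and -0.0078.

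For each transport gene the 3 protein-coding genes most like it were found by Pearson r over the 9 libraries, among 11614 genes with a mean rlog value of at least 5. The libraries fall into 3 groups, so such an r mostly follows the 3 group means, and it is given as a description. SPIN1 (0.998), ERCC6L2 (0.997) and EFR3A (0.996) were most like SLC16A1, and NHP2 (0.990), SAE1 (0.984) and SEPTIN9 (0.979) most like SLC16A3. MPC1 was matched by CHST3 (0.997), ZNF582 (0.995) and DPYSL5 (0.994), and SLC4A7 by MID1, CBFA2T2 and SMIM13 (0.996, 0.996 and 0.995). For BSG the genes were LPCAT1 (0.989), LRGUK (0.948) and RPL10A (0.947). MPC2, whose groups differed least, had the weakest matches, ZFAND1 (0.914), TMEM163 (0.901) and ACAA2 (0.895).

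Of 17 other monocarboxylate transporters and their partner proteins, 12 had values. In KD 5 were called higher and 2 lower (58.3% called, beside 53.7% of all genes), with a median rlog difference of 0.055. In OE 4 were called higher and 1 lower (41.7%, beside 34.8% of all genes), with a median of 0.037. Among genes with a mean rlog value of at least 5, 6 of the 7 left in this list were called in KD (85.7%, beside 72.8% of all such genes) and 2 of 7 in OE (28.6%, beside 52.8%). SLC16A8, which encodes a lactate transporter known from the retinal pigment epithelium, rose in KD by 0.37 in rlog value (adjusted p = 6.3e-09 from limma), and SLC16A7, which encodes the high-affinity pyruvate transporter MCT2, rose by 0.19 (adjusted p = 1.9e-07 from limma). Neither was called in OE (0.044 and -0.015). SLC5A12, a sodium-coupled lactate transporter, rose by 0.32 in OE (adjusted p = 5.9e-07 from limma) and SLC16A9 by 0.28 (adjusted p = 1.4e-06 from limma), both at parental rlog values near 4, and SLC5A12 was not called in KD (-0.075). NPTN, which encodes neuroplastin, a relative of basigin, fell by 0.072 in OE (adjusted p = 0.00804 from limma) and was not called in KD (-0.046).

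These low genes carry limits. With 16 added to each unlogged value, the rlog-scale rise in OE was 0.18 for SLC5A12 and 0.14 for SLC16A9, both still called, and the fall of SLC16A9 in KD was -0.050. The KD differences of SLC16A9 (-0.11) and SLC16A10 (-0.11) had adjusted p values of 0.0230 and 0.0440 from limma, and ranged from 0.0125 to 0.117 and from 0.0058 to 0.205 over the alternatives. The call of SLC16A9 was lost without parental replicate 2 (-0.085) and without KD replicate 2 (-0.097), and that of SLC16A10 without any 1 of parental replicates 2 and 3 and KD replicates 1 and 2 (-0.12 to -0.078). The SLC16A9 call was also lost with the median of neighbouring genes removed, and the SLC16A10 call in a fit of only the 2 groups compared, with libraries centred on their median and with 16 added. The adjusted p of NPTN in OE ranged from 0.0013 to 0.101, and its call was lost without parental replicate 2 (-0.049), without a variance trend and after quantile normalization (-0.048). SLC16A9 was therefore on different sides of parental in the 2 lines, lower in KD only where that call stood.

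Of 25 enzymes that make or use pyruvate and lactate, 21 had values. In KD 5 were called higher and 11 lower (76.2% called, beside 53.7% of all genes), with a median rlog difference of -0.048. In OE 6 were called higher and 4 lower (47.6%, beside 34.8% of all genes), with a median of 0.0038. Among genes with a mean rlog value of at least 5, 75% of the list was called in KD beside 72.8% of all such genes, and 45% in OE beside 52.8%, so the list is near the share at its level. PDK1, a kinase that turns off pyruvate dehydrogenase, had rlog values of 10.32, 10.36 and 10.37 in the parental libraries, 10.99, 10.98 and 10.89 in KD, and 10.97, 10.94 and 10.91 in OE. It was thus higher in all 6 engineered libraries, by 0.60 in KD (adjusted p = 2.0e-19 from limma) and 0.59 in OE (adjusted p = 2.1e-18 from limma). PDK3, another kinase of this family, rose in OE by 0.31 (adjusted p = 3.2e-11 from limma), and fell by 0.18 in KD (adjusted p = 6.4e-07 from limma).

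Other enzymes of this list moved in 1 line or in both. PDP1, which encodes a phosphatase that turns pyruvate dehydrogenase back on, fell by 0.33 in KD (adjusted p = 1.2e-16 from limma) and fell by 0.14 in OE (adjusted p = 1.7e-07 from limma). GPT2, which converts pyruvate to alanine in mitochondria, fell by 0.29 in KD and was not called in OE (-0.035). Of the malic enzymes, which make pyruvate from malate, ME1 rose by 0.36 in KD and by 0.19 in OE (adjusted p = 6.3e-08 from limma), and ME2 rose by 0.17 in KD and was not called in OE (0.015). LDHA, the lactate dehydrogenase subunit known for making lactate in glycolytic cells, had rlog values of 15.71, 15.69 and 15.71 in OE, above 15.51, 15.52 and 15.49 in the parental libraries, and its rlog difference was 0.19 (adjusted p = 2.4e-17 from limma). LDHA has 6 annotated pseudogenes. In KD the rlog difference of LDHA was 0.015 (adjusted p = 0.168 from limma). ME3 fell by 0.26 in KD (adjusted p = 2.8e-05 from limma) and fell by 0.20 in OE (adjusted p = 0.00158 from limma). PDP2 rose by 0.093 in KD (adjusted p = 9.6e-04 from limma) and fell by 0.074 in OE, where its adjusted p was 0.0114 from limma, from 0.00233 to 0.227 over the alternatives. The OE call of PDP2 was lost without OE replicate 3 (-0.052), after quantile normalization (-0.052) and with the median of neighbouring genes removed (-0.036).

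PDHB, which encodes a subunit of pyruvate dehydrogenase, fell by 0.27 in KD (adjusted p = 1.8e-12 from limma) and rose by 0.073 in OE (adjusted p = 0.00854 from limma). It lies on chromosome 3, like SLC4A7, and with the median of its neighbours removed its KD difference was 0.043 (adjusted p = 0.0838 from limma, against 4.1e-16 to 0.0838 over all alternatives).

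Of 26 acid-base transporters of the plasma membrane and carbonic anhydrases, 19 had values. In KD 6 were called higher and 5 lower (57.9% called, beside 53.7% of all genes), with a median rlog difference of 0.0080. In OE 1 was called higher and 4 lower (26.3%, beside 34.8% of all genes), with a median of -0.0025. At a mean rlog value of at least 5 the shares were 72.7% beside 72.8% in KD and 45.5% beside 52.8% in OE. CA9, which encodes a carbonic anhydrase on the outer face of the cell, had rlog values of 7.04, 6.99 and 7.06 in the parental libraries, 8.80, 8.91 and 8.90 in KD, and 8.70, 8.71 and 8.67 in OE. All 6 engineered libraries were far above parental, by rlog differences of 1.84 in KD (adjusted p = 9.9e-28 from limma) and 1.66 in OE (adjusted p = 1.3e-25 from limma). ARHGEF39 overlaps 35.7% of the exon sequence of CA9, so part of its value may be reads of that gene, which was not tested.

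SLC26A6, an exchanger of chloride for bicarbonate and other anions, fell by 0.47 in KD (adjusted p = 7.6e-17 from limma), and with the median of its neighbours on chromosome 3 removed it fell by 0.17, while in OE it was not called (-0.028). SLC4A4, a sodium bicarbonate cotransporter, fell by 0.20 in KD (adjusted p = 6.2e-04 from limma) and fell by 0.47 in OE (adjusted p = 1.3e-09 from limma), and its KD difference was -0.62 with the neighbours removed. SLC4A2, a chloride bicarbonate exchanger, fell by 0.071 in OE (adjusted p = 9.97e-04 from limma) and was not called in KD (-0.0052). SLC9A5, a sodium proton exchanger, rose by 0.21 in KD (adjusted p = 2.4e-08 from limma). The carbonic anhydrase gene CA13 rose by 0.36 in KD (adjusted p = 6.0e-08 from limma). Neither was called in OE (-0.0025 and 0.078).

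**Figure D5:**
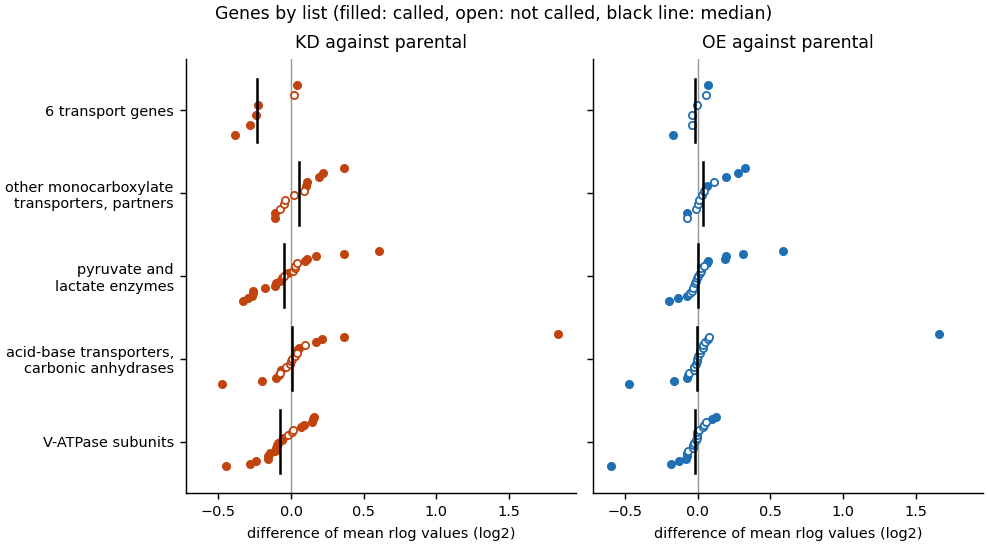
Differences of mean rlog values from parental (log2, x axis) for the genes of 5 lists (y axis) in KD (left) and OE (right); filled dots are called, open dots are not, and the black line is the median of each list. CA9 lies apart from all other genes shown, at 1.84 in KD and 1.66 in OE. Of the 6 transport genes, 4 are called lower in KD and 1 in OE, beside 26.9% and 18.0% of all genes.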

How the data were processed

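The 9 libraries, given as IMR-32, were made from isolated RNA and sequenced. The submitters' processing notes name cutadapt, HISAT2, featureCounts of Subread and DESeq2, with GRCh38. The authors removed genes with few reads in total and deposited regularized log2 (rlog) values of 22290 genes. Their 3 columns named by group are empty and were not used. No counts were used, so the depth of each single library, and the precision it gives, cannot be read from the values.

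Differences of group means were tested two-sided on the values as deposited with limma 3.58.1 in R 4.3.3 (variance trend, all 9 libraries, Benjamini-Hochberg over 22290 genes), tested on simulated data first. Gene models came from GENCODE v44; 95 identifiers had no match. Members and lists were chosen with earlier results of these data known. From each fixed list, the 3 called genes with the largest rise and the 3 with the largest fall in KD and in OE were named, apart from some genes not reported here; other named genes are members, TRAP1, markers, overlapping genes and the 3 genes most like each member. Values of these genes in the line they were not chosen by were added after they were seen, and the length of canonical transcripts was added after seeing the data. Alternatives covered the fit, the filter, the scaling, a pseudocount of 16, libraries left out, the replicate block and neighbour medians. Figures were drawn with matplotlib 3.10.9.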

Additional observations from a re-analysis of the deposited data

How the results depend on the processing

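The 21 differences of the 6 transport genes and TRAP1 were recomputed under 18 alternatives each. Of these 378 values, 361 kept their direction and side of the threshold. The KD falls of SLC16A1, SLC16A3, MPC1 and SLC4A7 were called under all 18, from -0.30 to -0.27, -0.25 to -0.19, -0.28 to -0.23 and -0.40 to -0.17.

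With the local median removed, the OE difference from parental was 0.0074 for SLC16A3 and 0.070 for TRAP1, the KD difference of MPC2 was -0.031, and OE minus KD was 0.040 for BSG, 0.074 for MPC2, -0.067 for SLC4A7 and -0.059 for TRAP1. PDHB in KD was 0.043. SLC16A1 in OE was 0.0040 with libraries centred on their median and 0.0015 after quantile normalization. BSG in KD was 0.045 without a variance trend, where the variance of each gene is drawn toward a value common to all levels. After quantile normalization it was 0.068, beside 0.0049 for MPC2 in KD, -0.058 for SLC16A3 in OE and 0.028 for TRAP1 in OE. With libraries left out in turn, the range was 0.031 to 0.052 for BSG in KD, -2.4e-04 to 0.038 for MPC2 in KD, -0.013 to 0.010 for SLC16A1, -0.077 to -0.0091 for SLC16A3 and 0.034 to 0.066 for MPC2 in OE, -0.012 to 0.042 for TRAP1 in OE (lowest without OE replicate 3) and, for OE minus KD, 0.0084 to 0.040 for BSG and 0.016 to 0.044 for MPC2. Apart from leaving libraries out, the cause was not tested.

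A difference over 0.5 as well left 1110 genes called in KD, 200 in OE and 793 between them, against 11980, 7764 and 10552, and none of the 6 genes. With a mean rlog value of at least 5, 1 of the other monocarboxylate transporters was called higher in OE against parental and 1 lower (4 and 1 with no filter). Against KD, 1 of 7 was higher in OE and 3 were lower (57.1%, beside 65.5% of all such genes). With no filter 3 were higher and 3 lower (50%, beside 47.3% of all genes). Of 11 acid-base genes, 1 was higher in OE than KD and 7 were lower (72.7%, beside 65.5%). With no filter 3 of 19 were higher and 7 lower (52.6%, beside 47.3%).

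Deviations of libraries with the same replicate number had correlations of -0.071 to 0.14, over 0.1 in 2 of 9 pairs. In 5 of 18 cases the best match in another group had the same number. The 2 pairs over 0.1 were KD with OE, at 0.12 for replicate 1 and 0.14 for replicate 3. Pairs with different numbers reached at most 0.075, and parental libraries at most 0.013 with their own number. These correlations thus showed no pairing of the parental libraries with the others by number, and KD and OE were weakly alike by number in these 2 pairs. Deviations from a mean of 3 libraries cancel out within the group, so these correlations depend on each other and a weak pairing could be missed. With a replicate block, 12015 genes were called in KD, 7854 in OE and 10623 between them, and no call of the 6 genes changed; the KD difference of SLC16A1 was -0.28. The depth of each single library cannot be read from these values, and rlog shrinks differences most at low levels, as for SLC16A3.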

Other observations

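Subunits of the V-ATPase, the proton pump of lysosomes and other acidic compartments, were read from the same fit. Of 25 listed subunits and accessory proteins, 20 had values. In the libraries labelled KD 5 were called higher and 12 lower (85% called, beside 53.7% of all genes), with a median rlog difference of -0.077. In those labelled OE 2 were called higher and 6 lower (40%, beside 34.8% of all genes), with a median of -0.019. Among genes with a mean rlog value of at least 5, which 17 of these subunits have, 94.1% of the list was called in KD beside 72.8% of all such genes, and 47.1% in OE beside 52.8%. ATP6V1G1, which has 7 annotated pseudogenes, fell by 0.45 in KD (adjusted p = 4.6e-18 from limma), ATP6V0E1 fell by 0.28 (adjusted p = 2.1e-11 from limma) and ATP6V0B fell by 0.24 (adjusted p = 8.7e-13 from limma). In OE, ATP6V1G1 was not called (-0.0079) and ATP6V0E1 fell by 0.074. With the median of neighbouring genes removed, ATP6V1G1 fell by 0.14 in KD. TCIRG1, ATP6V1A and ATP6V0E2 rose in KD by 0.16, 0.15 and 0.14, of which ATP6V1A was 0.075 with neighbours removed and ATP6V0E2 was 0.058 with 16 added to each unlogged value. TCIRG1 fell by 0.075 in OE (adjusted p = 0.0128 from limma), and ATP6V1A (-0.0069) and ATP6V0E2 (0.046) were not called there.

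In OE, ATP6V0A4, which encodes a subunit known from the acid-secreting cells of the kidney, had rlog values of 8.74, 8.63 and 8.68 in the parental libraries and 8.10, 8.03 and 8.13 in the libraries labelled OE. All 3 OE libraries lay below all 3 parental ones, and the rlog value fell by 0.60 in OE (adjusted p = 3.0e-14 from limma), beside -0.11 in KD (adjusted p = 0.0191 from limma). ATP6V0A2 fell by 0.19 and ATP6V0B fell by 0.13 in OE, while ATP6V1B2 rose by 0.12 and ATP6AP2 by 0.10. In KD, ATP6V0A2 fell by 0.16, ATP6V1B2 fell by 0.089 and ATP6AP2 rose by 0.068, all called. With neighbours removed, the rise of ATP6V1B2 was 0.058 (adjusted p = 0.0233 from limma, the highest over its alternatives).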
